A study of Mus musculus with 19 samples.

Results

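The genes described here are 10 members of the Sox family of transcription factors, Sox2, Sox3, Sox21, Sox4, Sox11, Sox9, Sox10, Sox7, Sox17 and Sox15. They were chosen by name from the 23284 mouse genes of the deposited RNA-seq tables, in which the family has 20 genes in all. Sox2 is the mouse gene of a factor introduced to convert the fibroblasts, and the other 9 are known as regulators of particular lineages. Expression was measured in mouse embryonic fibroblasts (MEFs), in prostate tissue and in renal grafts of induced epithelial cells, to ask how closely tissue converted from fibroblasts resembles prostate.

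The 6 MEF samples were cultured from C57BL/6 embryos at E13.5, and their labels carry the heterozygous allele Nkx3-1tm2(LacZ)Mms/+. The 6 prostate samples came from C57BL/6 mice at 6 weeks. For the 7 grafts, the labels give C57BL/6, 6 weeks of growth in nude mice, and a mixture of induced mouse epithelial cells with rat urogenital mesenchyme. The induced cells were fibroblasts that had received human OCT4, SOX2, KLF4 and c-MYC by retrovirus. By the study's methods, most of the sequenced grafts had additionally received Nkx3.1, androgen receptor and Foxa1 by lentivirus. The labels do not tell grafts with and without these 3 factors apart, so all are called grafts here. The study's supplement names every graft of the first table as having received them, and does not name the grafts of the second table. Grafts 1 to 5 share a table with the MEF and prostate samples, and grafts 6 and 7 stand in a second table normalized on its own. The study counts 5 sequenced grafts with these factors and 2 without, so by elimination grafts 6 and 7 would be those without. The table and this difference in the factors received therefore cannot be told apart, and grafts 6 and 7 entered no test. Statements over all 7 grafts cover both kinds. A graft holds mouse cells, rat stroma and possibly host kidney, and in such bulk RNA fewer cells of a type and less RNA per cell cannot be told apart.

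Sox proteins bind DNA through a high-mobility-group (HMG) box that is closely alike across the family, and they are grouped by its sequence. Sox2 and Sox3 (SoxB1) maintain pluripotent and neural progenitor cells, and Sox21 (SoxB2) opposes them in neural tissue. Sox4 and Sox11 (SoxC) act in mesenchymal and neuronal progenitors, Sox9 and Sox10 (SoxE) in cartilage, epithelial progenitors, neural crest and glia, Sox7 and Sox17 (SoxF) in endothelium and endoderm, and Sox15 (SoxG) in muscle progenitors.

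A stretch of coding sequence at the start of the HMG box is printed for all 10 genes, because short reads could be confused there. It was picked as the in-frame stretch of Sox2 most alike to the other genes, each taken at its best-matching position. Its differences are therefore the smallest found. The bases were read from GENCODE M1 transcripts, the annotation of the mm9 assembly, and capitals mark bases that differ from Sox2.
Sox2: aagaggcccatgaacgccttcatggtatgg
Sox3: aagCgAcccatgaacgcGttcatggtGtgg
Sox21: aagCggcccatgaacgccttcatggtGtgg
Sox4: aagCggcccatgaacgccttTatggtGtgg
Sox11: aaACggcccatgaacgccttcatggtGtgg
Sox9: aagCgAcccatgaacgccttcatggtGtgg
Sox10: aagaggcccatgaacgccttcatggtGtgg
Sox7: CGgCggcccatgaaTgccttcatggtGtgg
Sox17: CGgCggccGatgaacgccttTatggtGtgg
Sox15: aagCggcccatgaacgccttcatggtGtgg

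Of these 30 bases, Sox10 differed from Sox2 at 1, Sox21 and Sox15 at 2, Sox4, Sox11 and Sox9 at 3, Sox3 at 4, Sox7 at 5 and Sox17 at 6. Sox21 and Sox15 were identical to each other in this window. Identical runs were measured over whole transcripts, this window included, so divergence outside it was not measured separately. Over the 45 pairs of transcripts, the longest identical run had a median of 21 bases. The longest of all were 48 bases for Sox4 with Sox11, 44 for Sox9 with Sox10, 38 for Sox2 with Sox21 and 32 for Sox2 with Sox3. The read length and the treatment of reads that match several genes are not given in the sources used here, so any exchange of reads among these genes was not tested. Likewise, reads of the human SOX2 coding sequence or of rat Sox transcripts may or may not have aligned to the mouse genes, which was not tested. The study's supplement reports reads of the human SOX2 coding region in each of grafts 1 to 5, with almost none in prostate. Its counts are highest in grafts 4 and 5.

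Values are the authors' normalized read counts on a log2 scale. From their spacing, 16767283 to 26152340 reads had been counted on genes in each sample of the first table (17371412 to 23446508 in its grafts), against 6629661 in graft 6 and 9662053 in graft 7. The value that corresponds to 3 reads of a gene was 1.68 to 2.34 among samples of the first table, 3.12 in graft 6 and 2.70 in graft 7, and values at or below these are called undetectable. Levels of grafts 6 and 7 are set beside the others as deposited, without a common scale. These floors cover counting error only. The MEF samples formed 3 close pairs (MEF 1 with 6, 2 with 5 and 3 with 4). In these pairs the median chi-square over genes, a squared difference in reads, was 1.86 to 2.19 times that of sampling noise. For the other 12 pairs of MEF samples it was 16.5 to 24.1 times. The MEF samples may therefore hold fewer than 6 independent cultures, and p-values measure only the spread between these samples. MEF 1 to 4 also held prostate secretory transcripts: Pbsn, the gene of Probasin, was at 8.55, 6.59, 7.10 and 6.73 in them and at 0.02 and 0.35 in MEF 5 and 6. Among the grafts, 4 and 5 stood apart from 1 to 3 in the Sox genes described below. Results that rest on these samples are given with and without them. Because grafts 4 and 5 were singled out by these same values, differences without both are given as a description, with no test.

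The labels were checked against marker lists. Prostate exceeded MEFs in all 7 prostate secretory genes (median log2 difference 11.54, against 0.17 over all genes), and 7 of 7 were lower in grafts than in prostate (median -9.68, against 0.11). Grafts had 2 of the 7 higher than MEFs (median 1.97, against 0.26). Of 10 fibroblast genes, 9 were lower in prostate and 10 in grafts than in MEFs (medians -4.50 and -4.30), with 1 of 10 higher in grafts than in prostate (median -0.13). Of 8 kidney genes, 7 were higher in grafts than in MEFs and 8 higher than in prostate (medians 6.61 and 7.84, or 5.34 and 6.60 with undetectable genes placed at 3 reads). Only 2 of the 8 were tested between prostate and MEFs, and both were lower in prostate (median -4.23). The log2 of their summed level ran from 10.63 in graft 2 to 17.36 in graft 3. Kidney RNA thus moved with the graft group, and its part in the Sox differences was not tested.

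Sox2, which keeps pluripotent and neural stem cells undifferentiated and is present in basal cells of several epithelia, was far higher in every graft than in prostate, and higher in prostate than in MEFs. It lies on chromosome 3 from 34548927 to 34551383 in mm9 as a gene of 1 exon. Its log2 values were 10.75, 10.21, 10.50, 10.73 and 10.01 in grafts 1 to 5, and 9.98 and 11.01 in grafts 6 and 7. In prostate they ran from 6.64 to 7.12 (median 6.73), and in MEFs from 3.14 to 4.91 (median 3.93). No groups overlapped, and grafts with a very different make-up in other Sox genes had nearly the same Sox2 level. Reads of the introduced human SOX2 may be among those counted in grafts, and their part was not tested. In reads, the range was 1153 to 2873 in grafts 1 to 5, 91 to 134 in prostate and 8 to 33 in MEFs. The difference was 3.66 (SE 0.16) between grafts and prostate (adjusted p = 9.84e-08) and 2.83 (SE 0.27) between prostate and MEFs (adjusted p = 3.94e-07), by limma with Benjamini-Hochberg adjustment over all genes tested. For grafts against MEFs it was 6.49 (SE 0.30, adjusted p = 5.50e-08 by limma).

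Sox2 lies inside a much longer noncoding transcript gene on the same strand, Sox2ot, which was singled out after its values were seen. It runs from 34003360 to 34581541, and its exons in GENCODE M1 share 0 bases with the Sox2 exon. The annotation used for counting is not given, so whether the levels of both genes are fully separate was not tested. Sox2ot was at 6.36, 6.69 and 7.09 in grafts 1 to 3, but at 1.63 and 2.06 in grafts 4 and 5, which correspond to 2 and 3 reads. Grafts 6 and 7 had 5.44 and 9.61. In prostate it ran from 3.46 to 4.26, and in all 6 MEF samples it was undetectable. Grafts 4 and 5 thus had 2038 and 1153 reads of Sox2 beside almost none of Sox2ot, whereas prostate had 91 to 134 reads of Sox2 beside 9 to 20 of Sox2ot. Over the 5 grafts, Sox2ot was higher than in MEFs (adjusted p = 0.00357 by limma), where 3 grafts exceeded the highest MEF floor by at least 19.4-fold, 24.3-fold and 32.0-fold. It did not pass against prostate (difference 0.92, SE 1.00, adjusted p = 0.453 by limma).

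Sox3, the other SoxB1 gene, is on the X chromosome from 58144545 to 58146605 and is expressed in neural progenitors and the pituitary. Its values were 6.33, 4.63 and 7.07 in grafts 1 to 3, and 0.79 and 1.53 in grafts 4 and 5. Graft 7 had 6.74 and graft 6 had 1.94. The gene was therefore detected in grafts 1, 2, 3 and 7 and in no other sample of any group, since every prostate and every MEF sample was at or under 3 reads. Against the highest MEF floor, Sox3 was at least 19.0-fold, 5.86-fold and 31.6-fold higher in grafts 1, 2 and 3. The 5 grafts passed against MEFs (adjusted p = 0.00995) and against prostate (adjusted p = 0.00591, both by limma). The call against MEFs was lost when MEF 1 to 4 were left out (adjusted p = 0.241) or the close MEF pairs were averaged (adjusted p = 0.0626, by limma in each case).

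Sox21, a repressor of the SoxB2 group that acts in neural progenitors and in stratified epithelia and hair, had the largest difference of the 10 genes in both graft comparisons. Its single exon lies on chromosome 14 from 118632454 to 118636252. The values were 9.24, 9.24, 8.97, 10.15 and 9.33 in grafts 1 to 5. Grafts 6 and 7 had 7.40 and 9.64. In prostate Sox21 ran from -1.37 to 2.46 (median 1.68, 0 to 4 reads) and in MEFs from -0.91 to 2.52 (median 1.94, 0 to 6 reads), so both groups were at or near the limit of detection. All 7 grafts held it, including grafts 4 and 5, in which Sox3 was undetectable. With values under 3 reads raised to 3 reads, the difference was 7.25 against MEFs (adjusted p = 5.42e-09) and 7.17 against prostate (adjusted p = 1.71e-08, both by limma). Sox21 entered both fits through the grafts alone, with a linear mean of 699 there, 3.65 in MEFs and 2.96 in prostate. An opposite-strand gene, Gm4675, covers 713 of the 3799 exon bases of Sox21. The library kit named in the labels does not keep the strand, so reads of the overlap cannot be assigned to either gene.

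**Figure D1:**
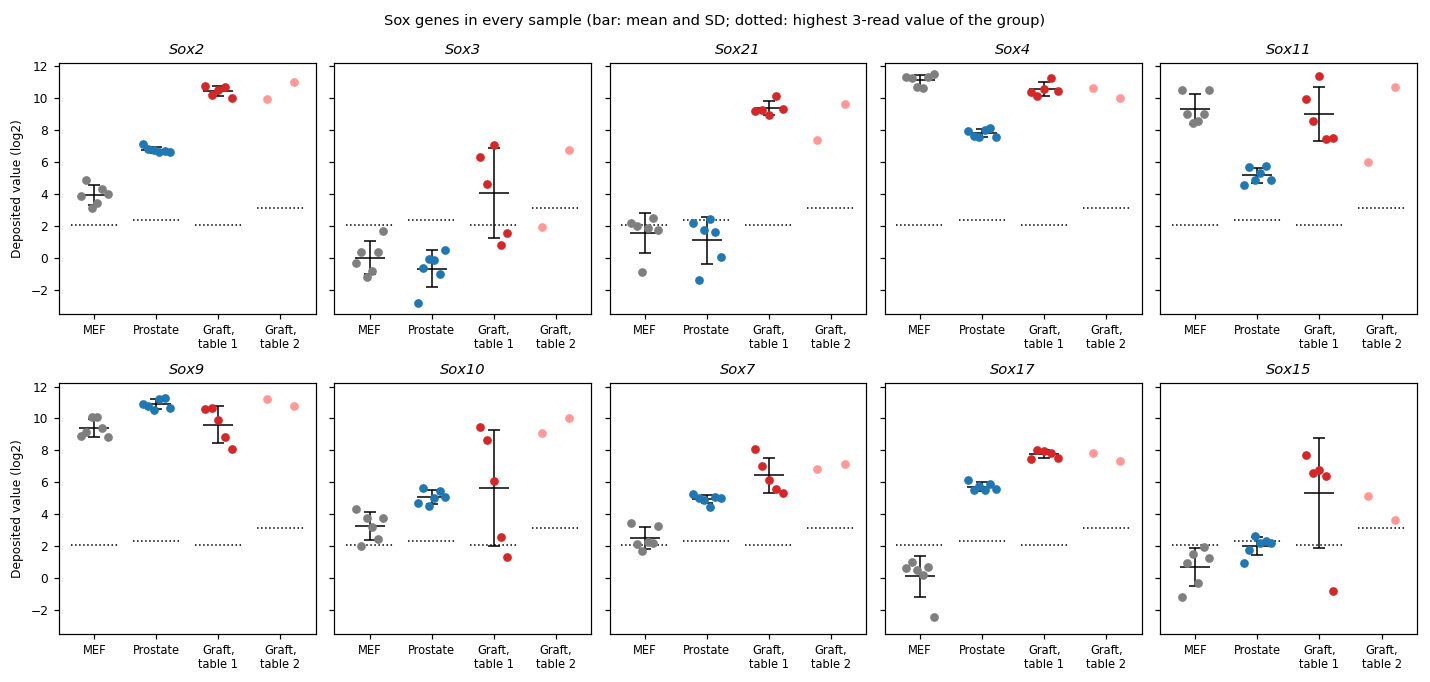
Deposited log2 value (vertical axis) of each of the 10 Sox genes in every sample, by group (horizontal axis): 6 MEF, 6 prostate, 5 grafts of the first table and 2 of the second. Points are samples, bars the mean and SD of the first table's groups, and dotted lines the highest 3-read value of the group. Sox2 (10.01 to 10.75) and Sox17 (7.45 to 8.02) form tight clusters in grafts 1 to 5, whereas Sox3, Sox10 and Sox15 are spread over most of the scale.

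Of the SoxC genes, Sox4 and Sox11 were lower in prostate than in MEFs and in grafts. Sox4, which supports survival and migration of progenitor cells and is widely expressed, ran from 10.63 to 11.50 in MEFs (median 11.29) and from 7.56 to 8.13 in prostate (median 7.81). Grafts 1 to 5 had 10.41, 10.12, 10.61, 11.31 and 10.48, and grafts 6 and 7 had 10.64 and 10.03. Every graft was above every prostate sample. Among grafts 1 to 5, only graft 4 was above the lowest MEF sample.

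Sox4 was lower in prostate than in MEFs by a log2 difference of -3.31 (SE 0.16, adjusted p = 9.21e-10) and higher in grafts than in prostate by 2.77 (SE 0.20, adjusted p = 1.33e-06, both by limma). Grafts and MEFs differed by -0.54 (SE 0.22), which did not pass (adjusted p = 0.0502 by limma). Sox4 lies on chromosome 13 from 29040788 to 29045582, and the opposite-strand gene Gm17419 covers 2616 of its 4795 exon bases, so the same limit on strand applies.

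Sox11, which promotes neuronal differentiation and is prominent in embryonic mesenchyme, lies on chromosome 12 from 28025562 to 28027574. It was at 10.52, 9.01, 8.43, 8.56, 9.01 and 10.54 in MEF 1 to 6 and ran from 4.54 to 5.77 in prostate (median 5.09). The MEF values followed the close pairs of samples, with MEF 1 and 6 highest. In grafts 1 to 5 the values were 9.98, 8.59, 11.41, 7.45 and 7.54, and in grafts 6 and 7 they were 6.00 and 10.69. All grafts lay above all prostate samples, with an SD of 1.69 over grafts 1 to 5 against 0.95 over the MEFs, and grafts 4 and 5 were below every MEF sample. The difference was -4.18 (SE 0.40, adjusted p = 4.34e-07) for prostate against MEFs and 3.82 (SE 0.65, adjusted p = 0.00048) for grafts against prostate by limma. Grafts and MEFs did not pass (-0.35, SE 0.72, adjusted p = 0.682 by limma). That difference changed sign without graft 4 (0.03), without graft 5 (0.01) or without both (0.65).

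Sox9 directs chondrocyte differentiation and is also expressed in progenitors of many epithelia, the developing prostate among them. It was the Sox gene with the highest values in prostate, from 10.51 to 11.31 (median 10.87), and lies on chromosome 11 from 112643538 to 112649074. MEF 1 to 6 had 8.89, 9.13, 10.08, 10.10, 9.38 and 8.86. Grafts 1 to 5 had 10.61, 10.68, 9.93, 8.81 and 8.07, and grafts 6 and 7 had 11.19 and 10.77. Grafts 1 and 2 were within the prostate range, graft 3 was within the MEF range, and grafts 4 and 5 were below every MEF sample. Prostate was higher than MEFs by 1.50 (SE 0.24, adjusted p = 6.04e-05 by limma), with no overlap. Grafts were lower than prostate by a log2 difference of -1.29 (SE 0.43, adjusted p = 0.0252 by limma), a call that rested on grafts 4 and 5. Without graft 4 the difference was -1.09 (adjusted p = 0.0559) and without graft 5 it was -0.90 (adjusted p = 0.0395), by limma, and neither passed. Without both it was -0.50. Between grafts and MEFs the difference was 0.22 (SE 0.48, adjusted p = 0.705 by limma). It was -0.03 without graft 1, -0.05 without graft 2, and 1.00 without grafts 4 and 5.

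Sox9 works with Sox5 and Sox6 on cartilage genes. Of 10 cartilage genes, 5 of the 9 tested were lower in prostate than in MEFs (median -3.61), among them Col2a1, the main cartilage collagen (-8.98), and Acan, the gene of aggrecan (-7.23), whereas Sox9 was higher. In grafts, 2 of the 10 were higher and 4 lower than in MEFs (median 0.93, and 0.38 with undetectable genes at 3 reads), and 5 of 10 were higher than in prostate (median 2.41). Col2a1 was at 13.70 and 13.59 in MEF 3 and 4 and at 10.61 to 12.32 in the other 4, so the MEF samples with the most Sox9 had the most Col2a1. In grafts 4 and 5, Col2a1 was at 2.05 and 2.20, near 3 reads.

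Sox10 is the SoxE gene of neural crest, Schwann cells and oligodendrocytes, and lies on chromosome 15 from 78985343 to 78994920. Its levels had the largest SD of the 10 genes over grafts 1 to 5 (3.63 on the log2 scale). They were 9.50, 8.66 and 6.09 in grafts 1 to 3, 2.54 and 1.29 in grafts 4 and 5, and 9.06 and 10.04 in grafts 6 and 7. Reads ran from 1202 in graft 1 to 1 in graft 5. Prostate was uniform at 4.49 to 5.67 (median 5.04), and MEFs had 2.03 to 4.29 (median 3.47). Grafts 1, 2, 3, 6 and 7 were above every prostate sample, graft 4 was within the MEF range and graft 5 was undetectable. Prostate was higher than MEFs by 1.82 (SE 0.39, adjusted p = 0.000735 by limma), with no overlap. That call was lost under quantile normalization (0.63, adjusted p = 0.0871) and in a fit over all 17 samples (adjusted p = 0.14, both by limma). The grafts passed neither against MEFs (2.37, SE 1.38, adjusted p = 0.148) nor against prostate (0.56, SE 1.33, adjusted p = 0.739, both by limma). Without graft 5 the difference from MEFs passed (3.45, adjusted p = 0.0249 by limma). Without grafts 4 and 5 it was 4.84 against MEFs and 3.02 against prostate. The difference from prostate turned to -0.41 without graft 1 and to -0.21 without graft 2.

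Of 10 Schwann cell and other glial genes, 6 of the 9 tested were higher in prostate than in MEFs (median 2.90). In grafts, 7 of 10 were higher than in MEFs and 3 of 10 higher than in prostate (medians 3.36 and 1.02). Erbb3, a receptor that Schwann cells share with many epithelia, was between 10.40 and 11.79 in all of grafts 1 to 5, those with little Sox10 included. The list as a whole was less even. All 10 genes were above 3 reads in each of grafts 1 to 3, against 7 and 6 in the grafts with little Sox10. The log2 of the summed list was 13.87, 14.17 and 12.94 in grafts 1 to 3, against 12.49 and 11.73. Whether glial genes followed Sox10 was not tested.

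Sox17, which specifies definitive endoderm and arterial endothelium, was the SoxF gene with the most uniform graft values. It lies on chromosome 1 from 4481009 to 4486494. Grafts 1 to 5 had 7.45, 8.02, 7.96, 7.84 and 7.51, and grafts 6 and 7 had 7.84 and 7.32. Prostate ran from 5.49 to 6.15 (median 5.66), and all 6 MEF samples were undetectable, with 0 to 1 reads. The 3 groups were fully separate, and grafts 4 and 5 did not stand apart in this gene. Against the highest MEF floor, mean Sox17 was at least 12.5-fold higher in prostate and at least 50.9-fold higher in grafts. On the values as deposited, the adjusted p against MEFs was 3.16e-07 for prostate and 1.31e-06 for grafts, both by limma. Grafts were higher than prostate by 2.03 (SE 0.19, adjusted p = 8.19e-06 by limma).

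Sox7 acts with Sox17 and Sox18 in forming blood vessels and lies on chromosome 14 from 64562511 to 64569569. Its values were 8.05, 7.04, 6.13, 5.60 and 5.33 in grafts 1 to 5 and 6.80 and 7.15 in grafts 6 and 7. In prostate it ran from 4.44 to 5.26 (median 5.02) and in MEFs from 1.72 to 3.46 (median 2.24, 2 to 13 reads). The groups did not overlap, but graft 5 was only just above the highest prostate sample. Differences were 2.44 (SE 0.32, adjusted p = 1.15e-05) for prostate against MEFs, 3.92 (SE 0.55, adjusted p = 9.20e-05) for grafts against MEFs and 1.48 (SE 0.45, adjusted p = 0.0155) for grafts against prostate, by limma. The last was 0.51 under quantile normalization and no longer passed (adjusted p = 0.419 by limma).

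Endothelial genes were set beside both SoxF genes. Of 10 endothelial genes, 8 were higher in prostate and 9 in grafts than in MEFs (medians 4.96 and 6.04, or 4.63 and 5.55 with undetectable genes placed at 3 reads), and 4 were higher in grafts than in prostate (median 0.95). They included Pecam1, a junction protein of endothelial cells, at a mean of 9.66 in grafts, 8.80 in prostate and 1.87 in MEFs. The log2 of the summed list was 11.83 to 12.76 in grafts 1 to 5, 10.95 to 11.43 in prostate and 8.30 to 9.65 in MEFs, so the 3 groups stood in the same order as for Sox17 and Sox7. Among grafts 1 to 5 the sum was lowest in graft 3, where Sox17 was at 7.96. The part of endothelial RNA in the Sox7 and Sox17 differences was not tested.

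Sox15, whose protein can bind the same sites as Sox2 and which is known from muscle progenitors and trophoblast, lies on chromosome 11 from 69468816 to 69470229. Grafts 1 to 4 had 7.69, 6.58, 6.78 and 6.39, whereas graft 5 had -0.82, which corresponds to 0 reads. Grafts 6 and 7 had 5.13 and 3.65, or 14 and 7 reads. In prostate the values ran from 0.96 to 2.62 (1 to 5 reads) and in MEFs from -1.18 to 1.96 (0 to 3 reads). All grafts but graft 5 were above every prostate and MEF sample. With values under 3 reads raised to 3 reads, the difference was 3.90 against MEFs (adjusted p = 0.00176) and 3.61 against prostate (adjusted p = 0.00347, both by limma). On the values as deposited the adjusted p was 0.0122 against MEFs and 0.0479 against prostate by limma. The call against MEFs was lost without MEF 1 to 4 (adjusted p = 0.229), with the close MEF pairs averaged (adjusted p = 0.0689) and under quantile normalization (adjusted p = 0.0682). The call against prostate was lost without any of grafts 1, 2, 3 and 4 (adjusted p = 0.115, 0.0975, 0.103 and 0.087 by limma) and without a filter on low values (adjusted p = 0.0563 by limma).

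Among grafts 1 to 5, graft 5 also had the lowest summed level of stratified-epithelium genes, a log2 of 11.47 against 13.77 to 16.14. Of 10 such genes, 6 of the 7 tested were higher in prostate than in MEFs, 9 of 10 higher in grafts than in MEFs, and 6 of 10 higher in grafts than in prostate. The medians were 6.92, 8.58 and 3.50, or 6.44, 8.14 and 3.11 with undetectable genes at 3 reads. Krt5, the keratin of basal cells, was at 13.73, 13.12, 11.67 and 11.90 in grafts 1 to 4 and at 5.13 in graft 5. Krt13, a keratin of internal stratified epithelia, was at 13.53, 13.46, 10.60 and 14.18 in grafts 1 to 4 and at 4.02 in graft 5. Other genes of the list, singled out after their values were seen, were not that low there. In graft 5, Krt6a, a keratin of stratified epithelia under stress, was at 10.64 (10.55 to 13.96 in grafts 1 to 4), and the desmosome gene Dsg3 was at 9.51 (7.81 to 11.98). Trp63, a regulator of basal cells, was at 7.54 in graft 5 (9.34 to 10.45 in grafts 1 to 4). Sox15 was detected in the 4 grafts of the first table with high Krt5 and Krt13, but prostate had Krt5 at 10.51 to 11.18 with Sox15 at no more than 5 reads.

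**Figure D2:**
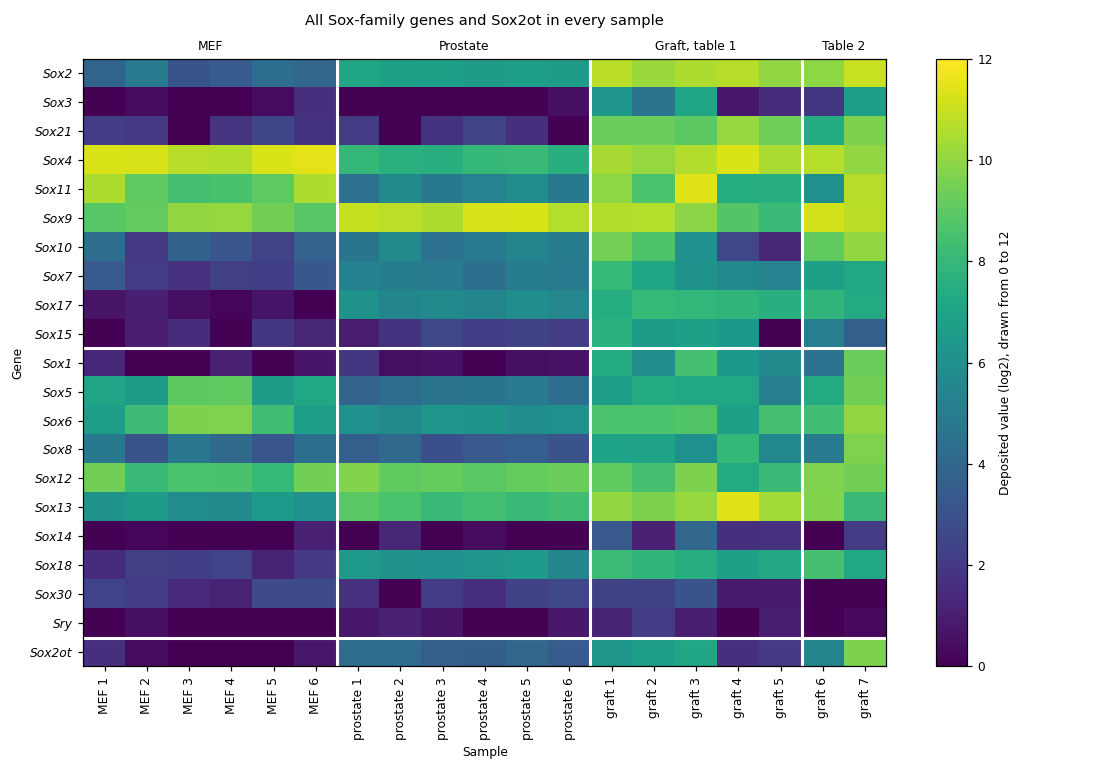
Deposited log2 value (colour, drawn from 0 to 12) of the 20 Sox-family genes and Sox2ot (rows) in the 19 samples (columns, numbered within each group), with white lines between groups and gene lists. Grafts 4 and 5 are dark for Sox3, Sox10 and Sox2ot while Sox2, Sox21 and Sox17 stay as bright as in grafts 1 to 3, and graft 5 alone is dark for Sox15.

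Neural and pluripotency genes were set beside the SoxB genes. Of 10 neural genes, 4 of the 6 tested were lower in prostate than in MEFs (median -3.88). In grafts, 4 were higher and 1 lower than in MEFs (median 0.56, or 0.31 with undetectable genes at 3 reads) and 8 of 10 higher than in prostate (median 3.85, or 3.82). Dcx, a microtubule protein of young neurons, was at 9.00, 7.61 and 10.29 in grafts 1 to 3, at 1.75 and 1.76 in grafts 4 and 5, and at 4.55 and 11.96 in grafts 6 and 7. As for Sox3, graft 7 and grafts 1 to 3 were above the rest. Pax6, a regulator of eye and forebrain progenitors, ran the other way and was highest in grafts 4 and 5, at 10.92 and 11.34, against 5.52 to 7.54 in grafts 1 to 3.

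Pluripotency genes were undetectable in most MEF and prostate samples, so none of the 10 could be tested between them. Of 9 tested, 8 were higher in grafts than in MEFs and 7 higher than in prostate (medians 4.56 and 4.72, or 3.04 and 2.63 with undetectable genes at 3 reads). Pou5f1, the gene of OCT4, was at 9.79, 4.52 and 8.96 in grafts 1 to 3 and undetectable in grafts 4, 5 and 6, and it was at 2.87 in graft 7, close to 3 reads. Sox2 was at 9.98 to 11.01 in all 7 grafts and so did not follow Pou5f1.

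In counts, 7 of the 10 Sox genes could be tested between prostate and MEFs, and all 7 passed an adjusted p under 0.05 from limma with a log2 difference of at least 1, where 48.3% of the 14560 genes tested passed. Sox2, Sox9, Sox10, Sox7 and Sox17 were higher in prostate (27.8% of all genes) and Sox4 and Sox11 lower (20.5%). Sox3, Sox21 and Sox15 were too low for that test. By an exact two-sided permutation test over samples, prostate and MEFs gave unadjusted p = 0.323 for Sox3, p = 0.563 for Sox21 and p = 0.0303 for Sox15. The Sox15 difference was 1.31 on values of at most 5 reads, and was lost without MEF 1 to 4 (exact p = 0.464) and under quantile normalization (exact p = 0.323).

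Between grafts and MEFs, 6 of the 10 passed as higher (Sox2, Sox3, Sox21, Sox7, Sox17 and Sox15) and 0 as lower by limma, where 41.9% of 16121 genes passed, 29.9% higher and 12.0% lower. By unadjusted exact permutation test, 0 of the 10 were lower at p under 0.05, and the nearest was Sox4 (p = 0.0541). Leaving out MEF 1 to 4 left 4 calls. Between grafts and prostate, 8 passed as higher (the same 6, Sox4 and Sox11) and 1 as lower (Sox9), where 33.3% of 16353 genes passed, 23.0% higher and 10.3% lower. The comparisons share samples. The filter asked for a linear mean of at least 10, which Sox3, Sox21 and Sox15 reached in both graft comparisons through the grafts alone, as did Sox7 and Sox17 against MEFs, and which Sox7 and Sox17 reached between prostate and MEFs through prostate alone. Such genes pass the filter by being high in 1 group, so the counts and medians here, and the limma p-values of these genes, are a description. The members' median difference was 1.82, 3.99 and 3.04 in the 3 comparisons, or 1.82, 3.14 and 2.40 with undetectable genes at 3 reads, beside 0.17, 0.26 and 0.11 over all genes. Quantile normalization moved these last medians to 0.01, -0.14 and -0.12, and the calls among the members to 4 higher and 2 lower, to 5 and 0, and to 6 and 1. Over all genes it moved the share of calls that were higher from 57.6% to 49.8%, from 71.3% to 45.4% and from 69.1% to 45.2%.

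**Figure D3:**
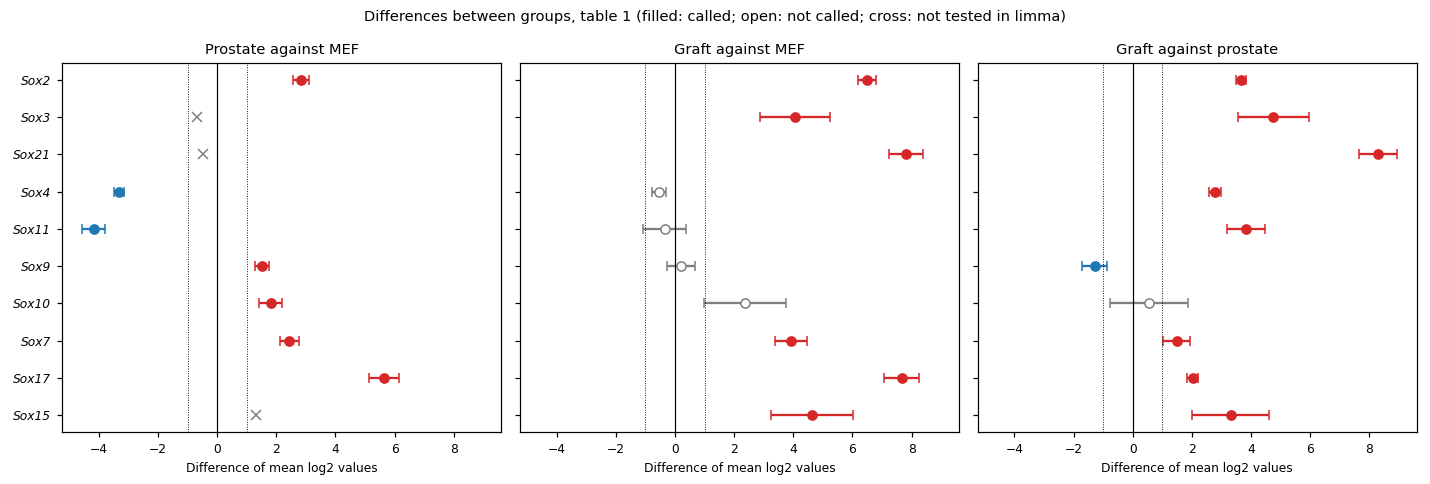
Difference of mean log2 values (horizontal axis) of each Sox gene in the 3 comparisons of the first table, with limma standard errors as bars and dotted lines at -1 and 1. Filled points passed, open points did not and crosses were not tested by limma; the SoxC genes Sox4 and Sox11 change side between prostate against MEF (-3.31 and -4.18) and graft against prostate (2.77 and 3.82).

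Exact permutation tests gave an unadjusted p = 0.00216, the smallest that 6 samples against 6 or 5 against 6 allow, for all 7 genes tested by limma between prostate and MEFs, for Sox2, Sox21, Sox7 and Sox17 between grafts and MEFs, and for 7 genes between grafts and prostate, Sox3 among them. For Sox3 this separation from prostate rests partly on the order of undetectable values. Its lowest grafts were at 0.79 and 1.53 and every prostate sample at 0.50 or lower, all under 3 reads. The smallest p therefore does not show that every graft held more Sox3 than prostate. For grafts and prostate the other unadjusted values were 0.0108 for Sox9, 0.0476 for Sox15 and 0.684 for Sox10. For grafts and MEFs they were 0.00649 for Sox3 and 0.026 for Sox15, and 0.173, 0.669 and 0.686 for Sox10, Sox11 and Sox9.

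Levels of different genes were compared per kilobase of annotated exon, on a linear scale of normalized reads. The lengths are those of GENCODE M1, which gives Sox11 2013 exon bases. The annotation used for counting is not given, so the order of genes may depend on these lengths, which was not tested. In grafts 1 to 5, Sox2 had the highest median, 590 (419 to 700), followed by Sox4 at 296 (232 to 528), Sox9 at 235 (64.7 to 397), Sox11 at 191 (86.0 to 1352) and Sox21 at 159 (132 to 299). The ranges of these neighbours overlapped, so that only the wider order holds. Sox17 at 72.1 (54.8 to 81.6) was below all of Sox2, Sox4 and Sox21. Sox15 (109), Sox10 (24.5), Sox7 (20.8) and Sox3 (11.3) completed the list, each with overlapping ranges. In prostate, Sox9 stood alone at 452 (353 to 615), with Sox4 at 46.7 (39.1 to 58.2) and Sox2 at 42.6 (39.8 to 56.1) next and not distinguishable from each other. In MEFs the order was Sox4 at 521 (331 to 603), Sox11 at 256 (170 to 739) and Sox9 at 147 (112 to 265), with every other member at a median of 5.56 or lower. The range of Sox11 overlapped those of both neighbours. Of the 10 genes, Sox4 had the highest level per length in 4 of 6 MEF samples and Sox11 in MEF 1 and 6. Sox9 was first in all 6 prostate samples. Sox2 was first in 4 of grafts 1 to 5, and Sox11 in graft 3. In the second table Sox2 was again first in graft 7 (837), and in graft 6 it was at 411 below Sox9 at 566.

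**Figure D4:**
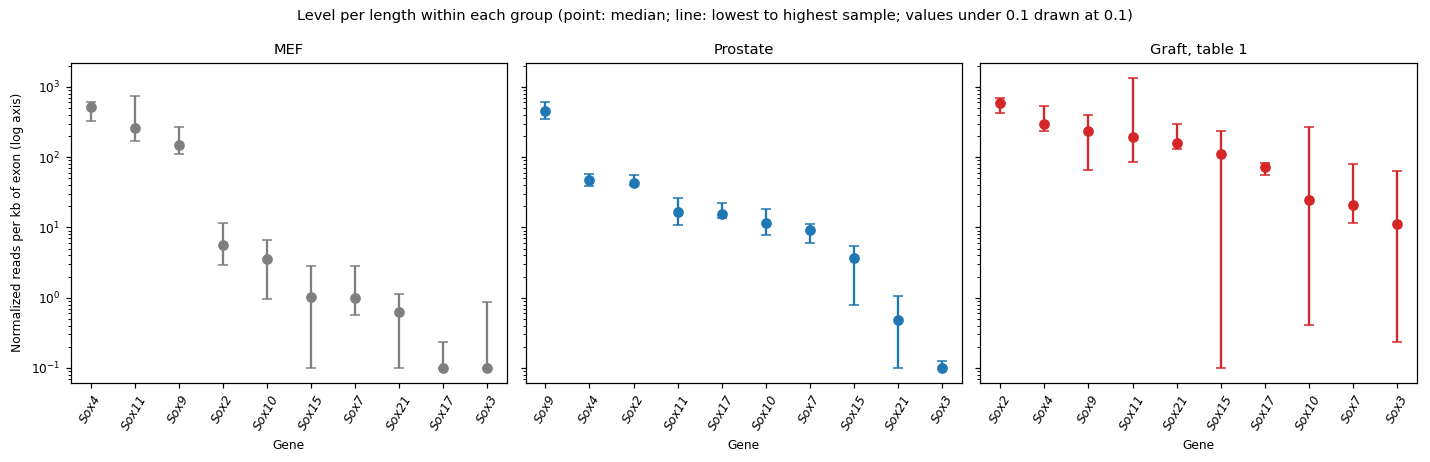
Normalized reads per kilobase of exon (log axis) of the 10 Sox genes in MEFs, prostate and grafts 1 to 5, ordered by median within each panel. Points are medians and lines run from the lowest to the highest sample, with values under 0.1 drawn at 0.1; the highest medians are those of Sox4 (521), Sox9 (452) and Sox2 (590), with the range of Sox11 overlapping that of Sox4 in MEFs and that of Sox2 in grafts.

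The 10 Sox genes outside the list followed several of these patterns. Sox1, the remaining SoxB1 gene, was at 7.33, 5.96, 8.41, 6.39 and 5.72 in grafts 1 to 5 and at 4.58 and 9.26 in grafts 6 and 7. It was undetectable in every prostate and MEF sample, so that mean Sox1 in grafts was at least 25.6-fold the highest MEF floor. In contrast with Sox3, it was present in grafts 4 and 5. Sox18, the remaining SoxF gene, ran from 6.75 to 8.19 in grafts 1 to 5, from 5.51 to 6.47 in prostate and from 1.16 to 2.41 in MEFs, in the same order as Sox7 and Sox17. Sox8, the remaining SoxE gene, was at 6.97, 6.90, 6.01, 7.98 and 5.62 in grafts 1 to 5 and was highest in graft 4, where Sox10 was low.

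Of these 10 genes, 2 were higher (Sox13 and Sox18) and 2 lower (Sox5 and Sox6) in prostate than in MEFs, of 6 tested (median -0.04). Sox5 and Sox6 were highest in MEF 3 and 4, at 8.99 and 9.07 and at 9.64 and 9.70, the samples highest in Sox9. Grafts had 4 of 7 higher than MEFs (Sox1, Sox8, Sox13 and Sox18, median 2.64) and 6 of 7 higher than prostate (the same 4, Sox5 and Sox6, median 2.20). Sox12, the remaining SoxC gene, did not pass in any comparison, with differences of 0.54, -0.15 and -0.69. Sox14, Sox30 and Sry were too low to be tested in any comparison, with at most 20, 10 and 5 reads.

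Likeness of pattern was measured over the 17 samples of the first table as the mean absolute difference of log2 values centred on each gene's mean, among 16101 genes, and the closest 2 genes were taken for each Sox gene. The closest match of all was Tmsb10, a thymosin, to Sox4 (0.21), followed by Sulf2 (0.28). Sox9 was nearest to Rab40b (0.32) and 4930412C18Rik (0.35), and Sox7 to Cadm4 and Bcam (both 0.39). Sox11 was nearest to Slc16a3 (0.46) and Nt5dc2 (0.48), Sox17 to Ggt6 (0.47) and Gimap5 (0.52), and Sox2 to Slc25a48 (0.47) and Scnn1a (0.55), a subunit of the epithelial sodium channel. The other matches were looser. Sox10 lay nearest to Gria1 (0.61) and Fam154b (0.69), Sox3 to Ptpn5 (0.75) and Ina (0.79), both known from neurons, Sox21 to Foxj1 (0.88), a regulator of motile cilia, and Myoz2 (0.89), and Sox15 to Prss27 (0.87) and Il1f9 (0.91).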

How the data were processed

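RNA was sequenced from 6 MEF, 6 prostate and 7 graft samples, grouped by the source named in the labels and numbered in accession order. Per the submitters' processing notes, the tools included bcl2fastq 1.8.4, TopHat, Cufflinks and DESeq, with the mm9 assembly. The counting annotation and the transformation are not given in the sources used here. The authors deposited normalized values per gene on a log2 scale in tables of 17 and 2 samples, with 23284 genes each and 23259 names in common, and 0 sample columns were left unused. All values between 11.5 and 15 corresponded to whole reads within 0.05 reads, which gave the depth, whereas lower values carry added scatter. Count tests were therefore not run.

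The deposited log2 values entered limma 3.58.1 (R 4.3.3, eBayes with a mean-variance trend) without further transformation. Each fit held the groups compared and the genes whose linear values averaged at least 10. Passing required an adjusted p (Benjamini-Hochberg, over all genes tested) under 0.05 and an absolute log2 difference of at least 1. Exact two-sided permutation tests over samples were added for the Sox genes. On simulated data, 80, 60 and 70 of 100 genes changed by 1.5 on the log2 scale were recovered for prostate against MEF, graft against MEF and graft against prostate (14560, 16121 and 16353 genes), and 93, 72 and 84 of 100 changed by 3. Positions, exon lengths and sequences are from GENCODE M1.

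The Sox genes and the lists (other Sox genes, endothelium, Schwann cell and other glia, cartilage, neural, pluripotency, stratified epithelium, kidney, prostate secretory, fibroblast) were chosen with earlier results of these data known. Named from the lists were up to 3 genes with the largest difference among those that passed, and defining markers, of which 2 of the glial list are not reported here. Alternatives changed the filter, the value added before the logarithm, the treatment of values below 3 reads, the scaling, which samples were fitted, the trend and the minimum difference, and left out MEF 1 to 4 or each graft in turn. Averaging the close MEF pairs and leaving out grafts 4 and 5 together were added after seeing the data. The close pairs were not averaged otherwise, because they differed beyond sampling noise. Calculations used Python 3.11.15, pandas 2.3.3 and matplotlib 3.10.9.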

Additional observations from a re-analysis of the deposited data

Results flagged for a closer look

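Of 30 sets of values (10 Sox genes in 3 groups of the first table), 4 held a sample far from the rest by Dixon's criterion, where chance alone gives about 1 in 20 groups, or 1.5 of 30. Sox15 was at -0.82 in graft 5 against 6.39 to 7.69 in the other 4. Sox2 was at 7.12 in prostate 1 against 6.64 to 6.82 in the other 5 prostate samples. Sox17 was at -2.43 in MEF 6 against 0.17 to 1.03, and Sox21 at -0.91 in MEF 3 against 1.78 to 2.52, both at or near the detection limit.

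Grafts 6 and 7, which entered no comparison, held values above the highest MEF sample of the separately normalized first table in the Sox genes listed next. The share of all genes above the MEF samples was not computed, so these values are a description. Sox2 was at 9.98 and 11.01 (highest MEF 4.91), Sox21 at 7.40 and 9.64 (2.52), Sox9 at 11.19 and 10.77 (10.10) and Sox10 at 9.06 and 10.04 (4.29). Sox7 was at 6.80 and 7.15 (3.46), Sox17 at 7.84 and 7.32 (1.03) and Sox15 at 5.13 and 3.65 (1.96). In graft 7 only, Sox3 was at 6.74 (1.68) and Sox11 at 10.69 (10.54).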

How the results depend on the processing

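Of 461 values recomputed under other settings, 434 kept their direction and their side of the threshold or, for counts, stayed within 1.5 times, as did 41 of 48 under those chosen after seeing the data. Asking for a linear mean of at least 50 left 4 of the 7 Sox calls between prostate and MEFs, since fewer genes were tested. Leaving out 1 graft in turn gave 6 to 7 Sox calls against MEFs and 7 to 8 against prostate, and 4 and 6 among the other Sox genes throughout. Reversed differences were those of prostate against MEFs with values below 3 reads set to 3 reads (Sox3 0.17, Sox21 0.081), of grafts against MEFs for Sox11 without graft 4, graft 5 or both (0.033, 0.011 and 0.65, with a range of -0.96 to 0.033 over single grafts) and for Sox9 without graft 1 or 2 (-0.032 and -0.051, range to 0.60), and of grafts against prostate for Sox10 without graft 1 or 2 (-0.41 and -0.21, range to 1.64). The cause was not tested. The labels link no samples across groups, so no paired analysis was possible. Depth limits Sox3, Sox21 and Sox15 in prostate and MEFs and Sox17 in MEFs to upper limits near 3 reads, and the grafts of the second table have fewer reads than any other sample.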
